A study of Homo sapiens with 4 samples.

Results

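The RAD21 peaks of the MYC domain of band 8q24 were described in HCT116 cells, a human colon cancer line. They were all peaks on chromosome 8 with a summit, the position of highest enrichment, from 126.5 to 129.5 Mb of the GRCh38 build. These were 53 of the 56853 peaks in the list, and 28 of them lay before the MYC start and 25 after it. Each summit was placed in CCAT1, CASC8, POU5F1B, CASC11, MYC or PVT1, or in an interval between these genes, by the GENCODE version 44 annotation. CCAT1 has no entry of that name there, and its RefSeq bounds on GRCh38 were used. The choice used the positions of the summits and none of their enrichment values.

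The study measured RAD21, a subunit of the cohesin ring, by chromatin immunoprecipitation with paired-end sequencing (ChIP-seq). The library used here, 1 of 4, came from wild-type HCT116 cells that received no auxin. The other 3 came from HCT116_RAD21_AID cells, 1 clone in which the mAID degron was added to the C-terminus of RAD21 on both alleles and which expresses the OsTIR1 ubiquitin ligase: RAD21 ChIP without auxins, RAD21 ChIP after 6 h in which both auxins, IAA and α-NAA, were present (500 μM of each), and the Input of cells treated in the same way. They were not analysed here, so there was no replicate and no comparison between conditions, and all values below describe 1 library without a test.

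Cohesin extrudes loops of chromatin and is held up at sites bound by CTCF, most often where the CTCF sequences of both loop ends point towards each other. MYC encodes a transcription factor that drives growth and division. In colon cancer cells its transcription depends on distant enhancers spread over the gene-poor chromatin around it, and several long non-coding RNAs (lncRNAs) are made from the same chromatin. CCAT1, CASC8 and CASC11 are lncRNAs named for colon cancer or cancer susceptibility, POU5F1B is a retrogene related to the pluripotency factor gene POU5F1, and PVT1 is the lncRNA gene downstream of MYC, whose promoter is known to compete with that of MYC for enhancers.

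MYC carried a RAD21 peak at its promoter and a stronger peak a short way upstream. The promoter peak covered chr8:127734857-127738957 and had its summit 63 bp after the start of the canonical MYC transcript, in exon 1. Its fold enrichment, the ratio of ChIP fragments to local background at the summit, was 10.6. The summit held 140 ChIP fragments over a local background of 12.3 fragments. Among all peaks of the list, 74.6% had a lower fold enrichment and 84.8% had fewer fragments.

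The promoter peak was unusually wide. It spanned 4101 bp, against a median of 393 bp in the window and 446 bp over the whole list. Only 20 of the 56853 peaks were at least this wide, itself included, and on chromosome 8 it was the widest of 2912. It began 1374 bp before the canonical MYC start and ended 2726 bp after it, and 14 of the 15 annotated MYC transcripts started inside it. It took in all 393 bp of the canonical exon 1, 710 of the 772 bp of exon 2 and none of exon 3, and 46.9% of the annotated gene in all.

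The upstream peak was narrower than the promoter peak, though wider than 70.0% of all peaks. It covered chr8:127733818-127734399, 582 bp, with its summit 2116 bp before the MYC start and 148 bp from the canonical start of CASC11, a lncRNA gene read from the opposite strand. Its fold enrichment was 18.2 with 362 fragments over 18.9 background fragments. The background there was 3.21 times the lowest value in the list, and 97.8% of all peaks had fewer fragments. Both peaks were 457 bp apart at their edges and 2179 bp apart at their summits.

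Both summits differed in their sequence. CTCF binds a long motif whose core consensus has 12 letters, and this core was looked for with up to 1 mismatch, in either orientation, in the 50 bp to each side of a summit. The upstream peak held an exact core centred on its summit, on the plus strand, which points towards MYC. At the MYC promoter summit the best match had 3 mismatches, and none with up to 1 mismatch was found within 100 bp either. The match describes the letters in this window and not the binding of CTCF, which was not measured.

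Further into MYC the peaks were weak. A summit in the intron, 3868 bp after the start, had a fold enrichment of 2.18 with 25 fragments. A summit in exon 3, 5640 bp after the start, had 2.59 with 31 fragments. On the other side of the upstream peak, the next summit lay 10.3 kb before the MYC start inside CASC11, with a fold enrichment of 5.25 and 59 fragments. The close-up of the MYC gene shows the contrast between the higher upstream peak, the broad promoter peak and the weak peaks over the gene body.

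**Figure D1:**
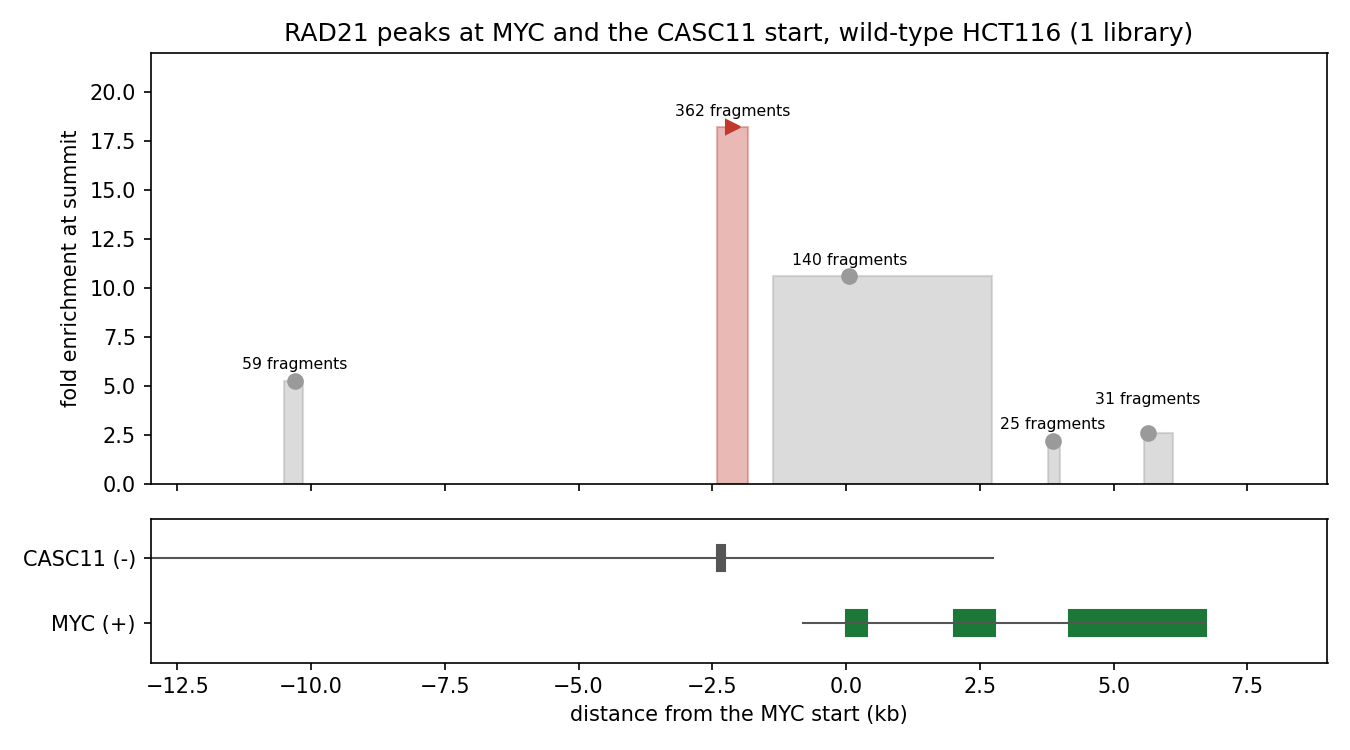
RAD21 peaks from 13 kb before to 9 kb after the MYC start (x axis, kb), drawn as boxes as wide as the called peak and as high as the fold enrichment at the summit (y axis, linear), with the fragments at the summit written above. The red triangle marks the exact CTCF core on the plus strand at 18.2, grey dots mark summits without a core, and the lower panel draws the gene bounds as lines and the canonical exons as boxes.

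A peak at the start of a protein-coding gene was common in this library. Of 20033 such genes, 43.8% had a summit within 1 kb of an annotated transcript start. Over the 8777 genes with one, the highest fold enrichment at the promoter had a median of 4.21, and 81.1% of these genes lay below MYC. Among lncRNA genes the share with a promoter peak was 19.3% of 18866.

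The genes whose products act with or against MYC varied widely. Of the 13 genes of a list of MYC, its relatives, its partner MAX and the MXD, MNT, MGA and MLX branches, 9 had a promoter peak, 69.2% against the 43.8% of all protein-coding genes. With only 13 genes, MYC among them, this share is imprecise, and the difference was not tested. The promoter of MYCN, the neuronal relative of MYC, stood highest at 54.97-fold, above 99.3% of the genes with a promoter peak. MLXIPL, which encodes a glucose-responsive factor of the MLX branch, reached 38.5-fold and MYCL 12.9-fold, so MYC at 10.6 was the fourth of the list. MXD1 and MXI1, which encode antagonists of MYC, had 9.07-fold and 5.04-fold peaks. MAX, the shared dimerisation partner, had a promoter peak of 3.36-fold, and MNT and MGA peaks of 2.91-fold and 2.73-fold. MXD3, MXD4, MLX and MLXIP had none within 1 kb of a start.

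Around MYC, the peaks of highest fold enrichment lay in the pair at the gene and far out on both sides. Of the 53 peaks, 12 reached a fold enrichment of 10, which is 22.6% with an exact binomial 95% interval of 12.3% to 36.2% that covers counting error only. The share over the whole list, 27.2%, lay inside that interval. Apart from the pair at MYC, 4 of the 12 lay at 859 kb or more before the MYC start and 6 at 587 kb or more after it. No peak of 10-fold or more lay in the 857 kb between the inner peak of the CCAT1 side and the peak upstream of MYC, nor in the 587 kb between the MYC promoter peak and the next strong peak on the PVT1 side.

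These 2 stretches were not empty. The first held 15 peaks with a fold enrichment of 2.10 to 5.41, and the second 13 peaks of 2.18 to 7.84. The stretch on the CCAT1 side had a median of 4.16-fold and 48 fragments, against 5.58-fold and 48 fragments over the whole list. The stretch on the PVT1 side had a median of 2.74-fold and 27 fragments. Beyond these stretches, the 12 outer peaks of the CCAT1 side had a median of 6.18-fold and 76.5 fragments and the 11 of the PVT1 side 10.4-fold and 104 fragments. The median local background was 1.77 and 1.75 times the lowest value in the stretches of the CCAT1 and PVT1 sides and 1.93 times in the outer peaks of both sides. Of 728 distances between neighbouring peaks of 10-fold or more on chromosome 8, 96.4% were shorter than the first stretch and 92.2% shorter than the second. Their median was 101 kb and the longest 2331 kb. These distances came from both arms, and the median local background was 1.12 times the lowest value on the short arm and 1.52 times on the long arm. Whether this difference bears on the distances was not tested. The stretches were bounded by the peaks of 10-fold or more themselves, after the values were seen, so they hold no such peak by construction. The outer groups include the bounding peaks. The differences in fold enrichment and fragments between the stretches and the outer peaks are therefore no separate result.

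**Figure D2:**
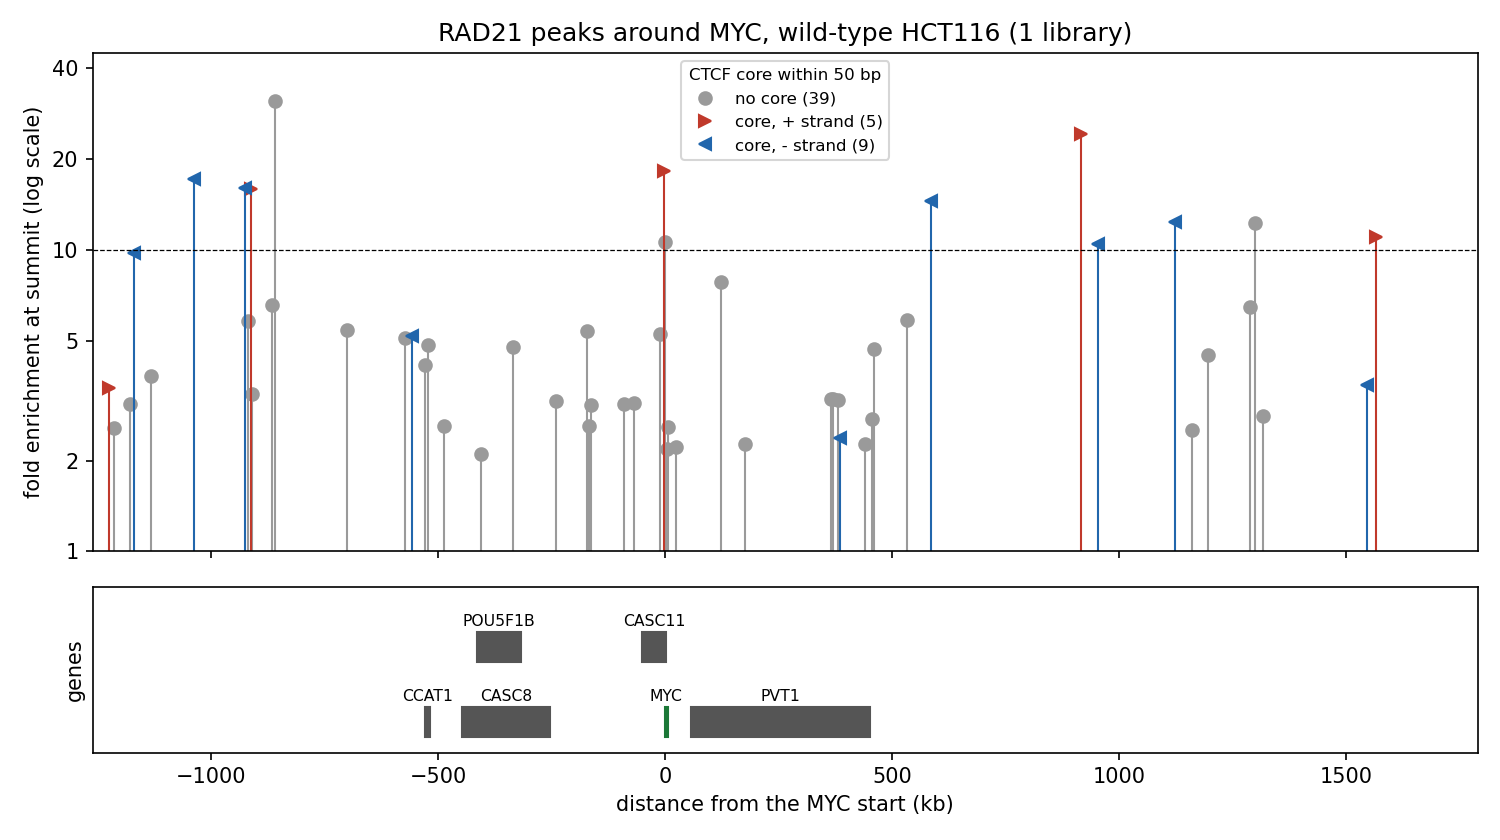
Fold enrichment at the summit (y axis, log scale) of the 53 window peaks against distance from the MYC start (x axis, kb), with the 6 genes below. Red and blue triangles mark a CTCF core on the plus and minus strand and grey dots no core, and the dashed line is at 10-fold, which only the MYC pair passes between 859 kb before and 587 kb after the start.

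On the CCAT1 side, the strongest peak of the whole domain lay far from MYC. Its summit, 859 kb before the MYC start at chr8:126876474-126877194, had a fold enrichment of 31.3 with 504 fragments and lay 61 bp from an annotated start of PCAT1, a long lncRNA gene. Of all peaks, 99.3% had fewer fragments. Its best CTCF core match had 2 mismatches, so it was not counted as a core. The peak upstream of MYC was the next by fold enrichment on this side, and the third, of 17.2-fold with 165 fragments, lay 1037 kb before MYC in a PCAT1 intron, with a core on the minus strand.

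CCAT1 itself carried a single peak. Its summit, 521 kb before the MYC start and 7758 bp inside the lower bound of the gene, had a fold enrichment of 4.82 with 86 fragments over a background of 2.89 times the lowest value. Both values were above the medians of the window, 4.47-fold and 50 fragments. Among all peaks, 71.1% had fewer fragments but only 43.2% had a lower fold enrichment. A neighbour of 4.16-fold with 78 fragments lay 223 bp outside that bound. Neither held a CTCF core. Between CCAT1 and CASC8 there was 1 peak, of 2.61-fold and 30 fragments.

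CASC8 and POU5F1B shared their peaks. The annotated POU5F1B gene lies within CASC8, and the same 2 summits fell in both. The stronger one had a fold enrichment of 4.78 with 47 fragments, 335 kb before MYC and 506 bp from the start of CCAT2, another lncRNA gene of this stretch. The weaker had 2.10-fold with 27 fragments, the lowest fold enrichment of the domain. With the shorter RefSeq bounds of POU5F1B, 0 summits fell in the gene. The nearest summit was 14468 bp from the canonical start of CASC8 and 14962 bp from that of POU5F1B, so neither start had a peak within 1 kb.

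From CASC8 to CASC11 there were 6 peaks without a core, the highest of 5.36-fold with 54 fragments at 171 kb before MYC. CASC11 held 3 summits, of which the highest, at its start, was the 18.2-fold peak upstream of MYC and another was the MYC promoter peak, because the annotated CASC11 gene overlaps MYC. Within the RefSeq bounds of CASC11 there was 1 summit, that of the peak 10.3 kb before the MYC start. The summit of the 18.2-fold peak lay just outside these bounds.

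On the PVT1 side, the peaks near MYC were weak. Between MYC and PVT1 there was a single peak, 25.1 kb after the MYC start, with a fold enrichment of 2.21 and 24 fragments. PVT1 itself, 393 kb long, held 7 summits with fold enrichments of 2.26 to 7.84. The strongest, at 124 kb after the MYC start, had 58 fragments and lay 503 bp from an internal start of the gene. A peak of 2.38-fold and 33 fragments held an exact core on the minus strand. At the canonical start of PVT1 no peak was called, and the nearest summits lay 33201 bp below and 65749 bp above it. With the shorter RefSeq bounds, 2 of the summits fell in PVT1.

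The 14 peaks beyond PVT1 were stronger, with 6 of 10-fold or more. The highest peak on the PVT1 side had a fold enrichment of 24.2 with 229 fragments, 917 kb after the MYC start at chr8:128653149-128653845, in an exon of the lncRNA gene CCDC26, and held a core on the plus strand. The second, of 14.5-fold with 178 fragments at 587 kb, lay 284 bp from the start of an unnamed lncRNA gene, ENSG00000286034, and held a core on the minus strand. The third, of 12.4-fold with 164 fragments at 1123 kb, lay in a CCDC26 intron with an exact core on the minus strand.

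**Figure D3:**
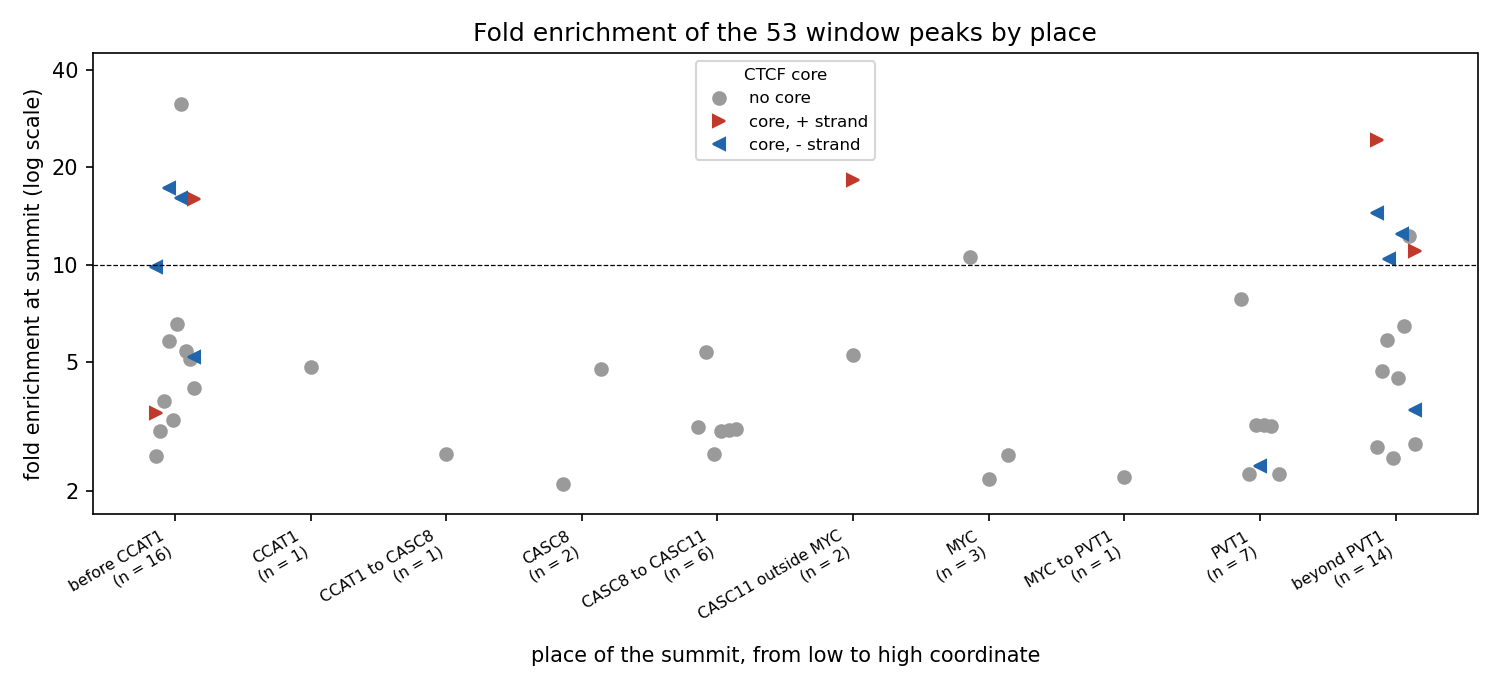
Fold enrichment at the summit (y axis, log scale) of the 53 window peaks by place from low to high coordinate (x axis, number of peaks in parentheses), with triangles for peaks with a CTCF core on the plus (red) or minus (blue) strand and grey dots for the others. All peaks at or above the dashed line of 10-fold lie before CCAT1, at the MYC pair or beyond PVT1.

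A CTCF core was found in 14 of the 53 peaks, 26.4% with an exact interval of 15.3% to 40.3%, which includes the 38.5% of all peaks. In control windows 5 kb to either side of the window summits, the core was found in 0 of 53 and 0 of 53, and over all peaks in 0.744% and 0.779%. The cores went with strength. Peaks with a core had a median fold enrichment of 11.7, and 9 of 14 reached 10-fold. Peaks without a core had a median of 3.20, and 3 of 39 reached 10-fold: the PCAT1 peak, the MYC promoter peak and a 12.3-fold peak 1299 kb after MYC. Over the whole list the medians were 8.86 and 4.16, and 44.1% of the peaks with a core and 16.6% of those without reached 10-fold. In the window these shares were 64.3% and 7.69%, from few peaks, and the difference from the list was not tested. In the stretches bounded by the 10-fold peaks 2 of 28 peaks had a core, and in the outer peaks 11 of 23, a split made on fold enrichment itself.

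The strand of the cores was mixed on the CCAT1 side. There, 3 cores were on the plus strand, pointing towards MYC, and 4 on the minus strand. On the PVT1 side, 5 were on the minus strand, pointing towards MYC, and 2 on the plus strand. The plus cores on the CCAT1 side lay 1226, 912 and 2.12 kb before MYC. The minus cores on the PVT1 side lay 385, 587, 953, 1123 and 1547 kb after it. Over all peaks, 11071 cores were on the plus and 10808 on the minus strand.

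Peaks were as dense here as on the rest of the chromosome. The window held 17.7 peaks per Mb, against 20.1 on chromosome 8 and 19.2 over chromosomes 1 to 22, X and Y outside assembly gaps. Of the 47 other complete 3 Mb bins of chromosome 8, which held 16 to 346 peaks, 24 had fewer peaks than the window and 23 had more. The side before the MYC start held 22.7 peaks per Mb and the side after it 14.2. By annotation, 11 peaks lay within 1 kb of a transcript start, 2 in other exons, 31 in introns and 9 between genes. Introns took 58.5% of the window peaks and 37.8% of all peaks, and the places between genes 17.0% and 33.5%. Peaks within 1 kb of a start made up 20.8% and 23.6%, and those in other exons 3.77% and 5.13%. The long genes PCAT1 and CCDC26 covered 18 and 10 of the summits.

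The longest stretches without a peak lay on the PVT1 side. The longest, 331 kb, ran from the peak at 587 kb to the peak at 917 kb after the MYC start and covered the lncRNA gene LINC00824. The second, 229.8 kb, ran from 1317 to 1547 kb. Only stretches between summits inside the window were ranked, so those that cross its bounds were left out. Of the distances between neighbouring summits on chromosome 8, 98.5% and 96.8% were shorter. On the CCAT1 side the longest was 159 kb, from 859 to 701 kb before MYC. The median distance was 34.6 kb in the window and 23.2 kb on the chromosome.

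The last peak before the lower bound of the window had a fold enrichment of 3.86 with 37 fragments, and the first inside it 3.48 with 42. At the upper bound the last peak inside had 11.0 with 146 fragments, and the next outside 26.2 with 398.

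The local background was higher at most peaks of the domain than at the median peak of the list. It was computed from the fold enrichment and the p-value of each peak and is given as a multiple of its lowest value in the list, 5.9 fragments. All 53 window peaks lay above that value, with a median of 1.85 and a range of 1.11 to 3.37, while 32% of all peaks lay at it and the median of all peaks was 1.14. The lowest, 1.11, was at the strongest peak in PVT1 and was the only window value below that median. The control of this library is not named, and the only Input of the series came from auxin-treated HCT116_RAD21_AID cells, so the background may describe those cells and not the wild-type cells. The number of fragments at the summit had a median of 50 in the window and 48 over the whole list, and the fold enrichment, which divides by the background, 4.47 in the window and 5.58 over the list. The 12 peaks of 10-fold or more were also 12 of the 13 with at least 100 fragments, a count that does not use the background, and 24.5% of the window peaks against 24.2% of all peaks reached that number.

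Similar values were found over much of the long arm. The median was 1.12 on the short arm, split at 45 Mb, and 1.51 on the long arm without the window. In steps of 10 Mb it was 1.12 to 1.25 from 100 to 60 Mb before MYC, 1.45 to 1.93 from 60 Mb before to 10 Mb after MYC, and 1.29 from there to the end of the chromosome. Chromosome 8 had the highest median of all, 1.43, and the other 23 ranged from 1.00 to 1.39. HCT116 is known for extra copies of distal 8q, and the part of copy number in these values was not tested.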

How the data were processed

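RAD21 ChIP-seq of 1 library, untreated wild-type HCT116 cells, was analysed from its peak list, which covered 1 of 4 libraries. The authors trimmed the reads with Trimmomatic 0.39, aligned them with Bowtie2 2.5.3 to GRCh38, removed duplicates with Picard and called peaks against an Input with MACS2 2.2.9.1. Which Input was the control of this library is not given in the sources used here, and the only Input of the series came from auxin-treated HCT116_RAD21_AID cells. The deposited file gives each peak's position, summit, a score that was not used further, the fold enrichment (a ratio) and the −log10 of the p-value and q-value. The lowest −log10 q was 1.30. The total depth is not in the file, so precision was judged from the fragments at each summit.

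Fragments and local background were solved from fold enrichment and p-value, taking 1 as added to both terms of the ratio and the p-value as Poisson. The numbers were whole within 0.05 for all but 14 peaks. The procedure was tested on simulated data. These were made with the same formulas and did not reach the highest backgrounds and fragment numbers of the list. The test therefore checks the calculation and not whether the formulas hold for this list. Values from the narrowPeak columns were summarised with Python 3.11.15, pandas 2.3.3 and scipy 1.17.1, and annotated with GENCODE version 44. The search for the CTCF core used the GRCh38 reference sequence. No sequence of this region is printed.

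The genes and lists were chosen with earlier results of these data known. Named were all 6 genes, the MYC promoter peak and its neighbours, the highest peak of each gene and interval, the 3 highest on each side (the MYC promoter peak counting as MYC), the longest peak-free stretches, the peaks at the window bounds, peaks with a CTCF core and the MYC network list. The alternatives were stricter q-values, a limit on background, a narrower window, other core, overlap and promoter rules, other rankings of the MYC peak and, added after seeing the data, RefSeq bounds and a fragment minimum.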

Additional observations from a re-analysis of the deposited data

How the results depend on the processing

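There was a single library, so no replicate could be left out and no samples could be paired. Over the alternatives run, the window held 37 to 53 peaks and the CCAT1 side 19 to 27 against 28 as reported, with both lowest counts at a local background below 2 times the lowest value. The median fold enrichment ran from 3.48 to 5.31 and the share of 10-fold peaks from 18.9% to 30.0%. On the PVT1 side, 16 of the 25 peaks had a q-value of at most 1e-05, against 24 of the 28 on the CCAT1 side. Over all peaks, the lower quartile of −log10 q was 6.67. With up to 1 mismatch, the share of window peaks with a CTCF core ran from 20.5% to 32.5%. An exact match to the core was found in 13.2% of the window peaks and 11.45% of all peaks. The share of protein-coding genes with a promoter peak was 50.01% with a summit within 2 kb of a start and 46% with any overlap of the peak with 1 kb around a start. The MYC promoter peak stood above 82% of all peaks by −log10 q and above 84.8% by fragments. RefSeq bounds, tried after seeing the data, left 2 summits in PVT1, 1 in CASC11 and 0 in POU5F1B. The weakest peaks rest on as few as 21 fragments, and shares of 53 peaks have wide intervals. Fold enrichment and called width depend on the Input and on the caller, and no other library checked them here.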
